A study of Macaca mulatta with 304 samples.

Results

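A set of 10 genes that mark plasma cells, JCHAIN, MZB1, XBP1, PRDM1, TNFRSF17, IRF4, DERL3, TXNDC5, CD38 and SDC1, were followed through whole blood RNA sequencing of rhesus macaques (Macaca mulatta) before and after irradiation of the chest. They were found by their symbols among the 21070 genes of the deposited count table, and 10 of 10 were present and had enough counts to be tested. The study followed 28 healthy adult animals of the Chinese sub-strain, 14 males and 14 females, whose thorax received a dose of 9.8 Gy (low dose, LD, 12 animals) or 10.7 Gy (high dose, HD, 16 animals). No animal was left unirradiated, so the control of each animal was its own blood drawn at Day -2, which was present for 24 animals and not for 4 of the HD animals. Blood was taken up to Day 270 and gave 24 control and 280 irradiated libraries. Animals received the analgesics tramadol or buprenorphine between Day 4 and Day 25 and dexamethasone when breathing became fast. The animals that had dexamethasone are not named in the sources used here, so its part in any result cannot be told apart from that of the radiation.

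The days were read alone and in 3 windows, an early window from Day 3 to Day 21 (Day 3, 6, 9, 15 and 21), a medium window after Day 21 up to Day 90 (95 samples) and a late window after Day 90 (53 samples). Late blood came from 16 animals, 12 LD and 4 HD, of which 14 had a control. The paper reports that animals were lost during the follow-up and that euthanized animals gave a final sample. The late window can therefore hold final draws of ill animals, and Day 180 to Day 270 rest on the same 6 animals. Time since irradiation and the health of the animals drawn cannot be told apart there. Values are CPM, the share of the counts of a library scaled by its upper quartile, and a gene was called when the adjusted p of edgeR's quasi-likelihood test over 13751 tested genes was at most 0.05 and the fold was at least 1.5 in either direction. Library totals ranged from 2840219 to 23638161 counts with a median of 8227563, and 19 libraries held under 5000000. Sample descriptions carry a library number, which was 1 to 150 for 20 controls and 0 for the other 4. Those 4 controls came from HD animals, and every LD control was numbered 1 to 150. Late libraries carried 0 or a number over 150. The sources used here do not state what the number, or a 0, stands for. Libraries numbered 0, 1 to 150 and over 150 were read as 3 series, which need not be batches. Of the 14 animals with a late and a control library, 1 had a control numbered 0, too few to compare the late window with controls within 1 number series. A fit of all samples with animal, window and number series as terms, in which every draw counts as a replicate, called CD38 (-1.47), DERL3 (-0.90), IRF4 (-0.89) and MZB1 (-0.80) lower in the late window and XBP1 (0.59) higher. The libraries farthest from the rest in overall profile were those of animals B1502 (LD, Day 150), B2507 (HD, Day 120) and B1503 (LD, Day 270), and the number of genes called in the late window was 5 to 6 without any 1 of its animals. Apart from the fit of all samples, whose p-values also rest on the spread between draws of an animal, p-values measure the spread between animals.

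Plasma cells are the end stage of B cell maturation and secrete antibodies at a very high rate. The transcription factors IRF4 and PRDM1 (Blimp-1) turn off the B cell programme, and XBP1 widens the endoplasmic reticulum, where chaperones and disulfide isomerases fold immunoglobulin chains and the J chain joins IgA or IgM units. Most plasma cells live in bone marrow and mucosa, and few circulate in blood, as recently formed plasmablasts. Several of these genes are also expressed outside the lineage in blood: CD38 in activated lymphocytes and monocytes, IRF4 in B and T cells and plasmacytoid dendritic cells, XBP1 and PRDM1 in T and myeloid cells, and MZB1 and DERL3 in plasmacytoid dendritic cells. In bulk blood, fewer cells of a type and less RNA per cell cannot be told apart.

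The promoters of JCHAIN and MZB1 are shown because, in the counts as deposited, these genes parted in the early window although both products serve antibody assembly. Each sequence covers 250 bases before to 50 bases after the start of the curated RefSeq transcript and was read from the Mmul_10 genome. JCHAIN lies on chromosome 5 from 63087828 to 63120109 on the plus strand, and its window is chr5:63108431-63108730. MZB1 lies on chromosome 6 from 136790620 to 136792908 on the minus strand, and its window is chr6:136792859-136793158. In MZB1 the capitals mark CCACGTGG, in which ACGTGG, the core of the unfolded protein response element that XBP1 binds, was read on both strands at positions -128 to -121 from the start, with the 2 matches overlapping.
JCHAIN: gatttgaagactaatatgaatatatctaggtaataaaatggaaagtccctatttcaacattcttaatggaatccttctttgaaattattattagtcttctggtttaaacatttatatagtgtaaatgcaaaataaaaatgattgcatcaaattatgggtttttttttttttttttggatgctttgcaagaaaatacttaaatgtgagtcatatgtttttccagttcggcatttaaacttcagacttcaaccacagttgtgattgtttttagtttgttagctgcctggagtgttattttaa
MZB1: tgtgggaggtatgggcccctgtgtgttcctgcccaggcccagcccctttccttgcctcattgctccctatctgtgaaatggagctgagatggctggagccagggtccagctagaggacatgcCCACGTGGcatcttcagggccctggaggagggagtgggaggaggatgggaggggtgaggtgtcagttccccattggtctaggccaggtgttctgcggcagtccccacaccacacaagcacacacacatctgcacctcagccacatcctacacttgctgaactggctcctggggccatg
The JCHAIN window held 27.67% G and C bases and the MZB1 window 60.67%. All motifs were searched on both strands. The ACGTGG core was in 9.88% of 21051 promoters of the same length and in 1 of 10 of the plasma cell genes. The octamer ATTTGCAT, which Oct factors bind, was in 1.63% of all promoters and in 0 of 10. The CCAAT box was in 33.6% of all promoters and in 4 of 10 (MZB1, XBP1, TXNDC5 and CD38), and the endoplasmic reticulum stress element, CCAAT followed by 9 bases of any kind and CCACG, was in 0.0523% and in 0 of 10. A match is a description of the letters in the window and does not show that a factor binds there.

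In control blood the 10 genes spanned a wide range of levels. Per kilobase of exon, the median was 70.8 CPM for JCHAIN, 60.4 for CD38, 55.5 for XBP1, 29.6 for MZB1, 24.8 for IRF4, 15.9 for TXNDC5, 11.4 for PRDM1, 8.87 for DERL3, 1.44 for TNFRSF17 and 0.366 for SDC1. Neighbours in this order overlapped over the 24 controls, except XBP1 with MZB1 and DERL3 with TNFRSF17. TNFRSF17, the receptor BCMA, and SDC1, the surface proteoglycan CD138, stood lowest, with a median of 12 and 10 raw counts a library, so that their changes were the least precise of the list. JCHAIN varied most between animals before irradiation, from 25.8 to 347 CPM per library, whereas XBP1 ranged from 76.6 to 143.

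**Figure D1:**
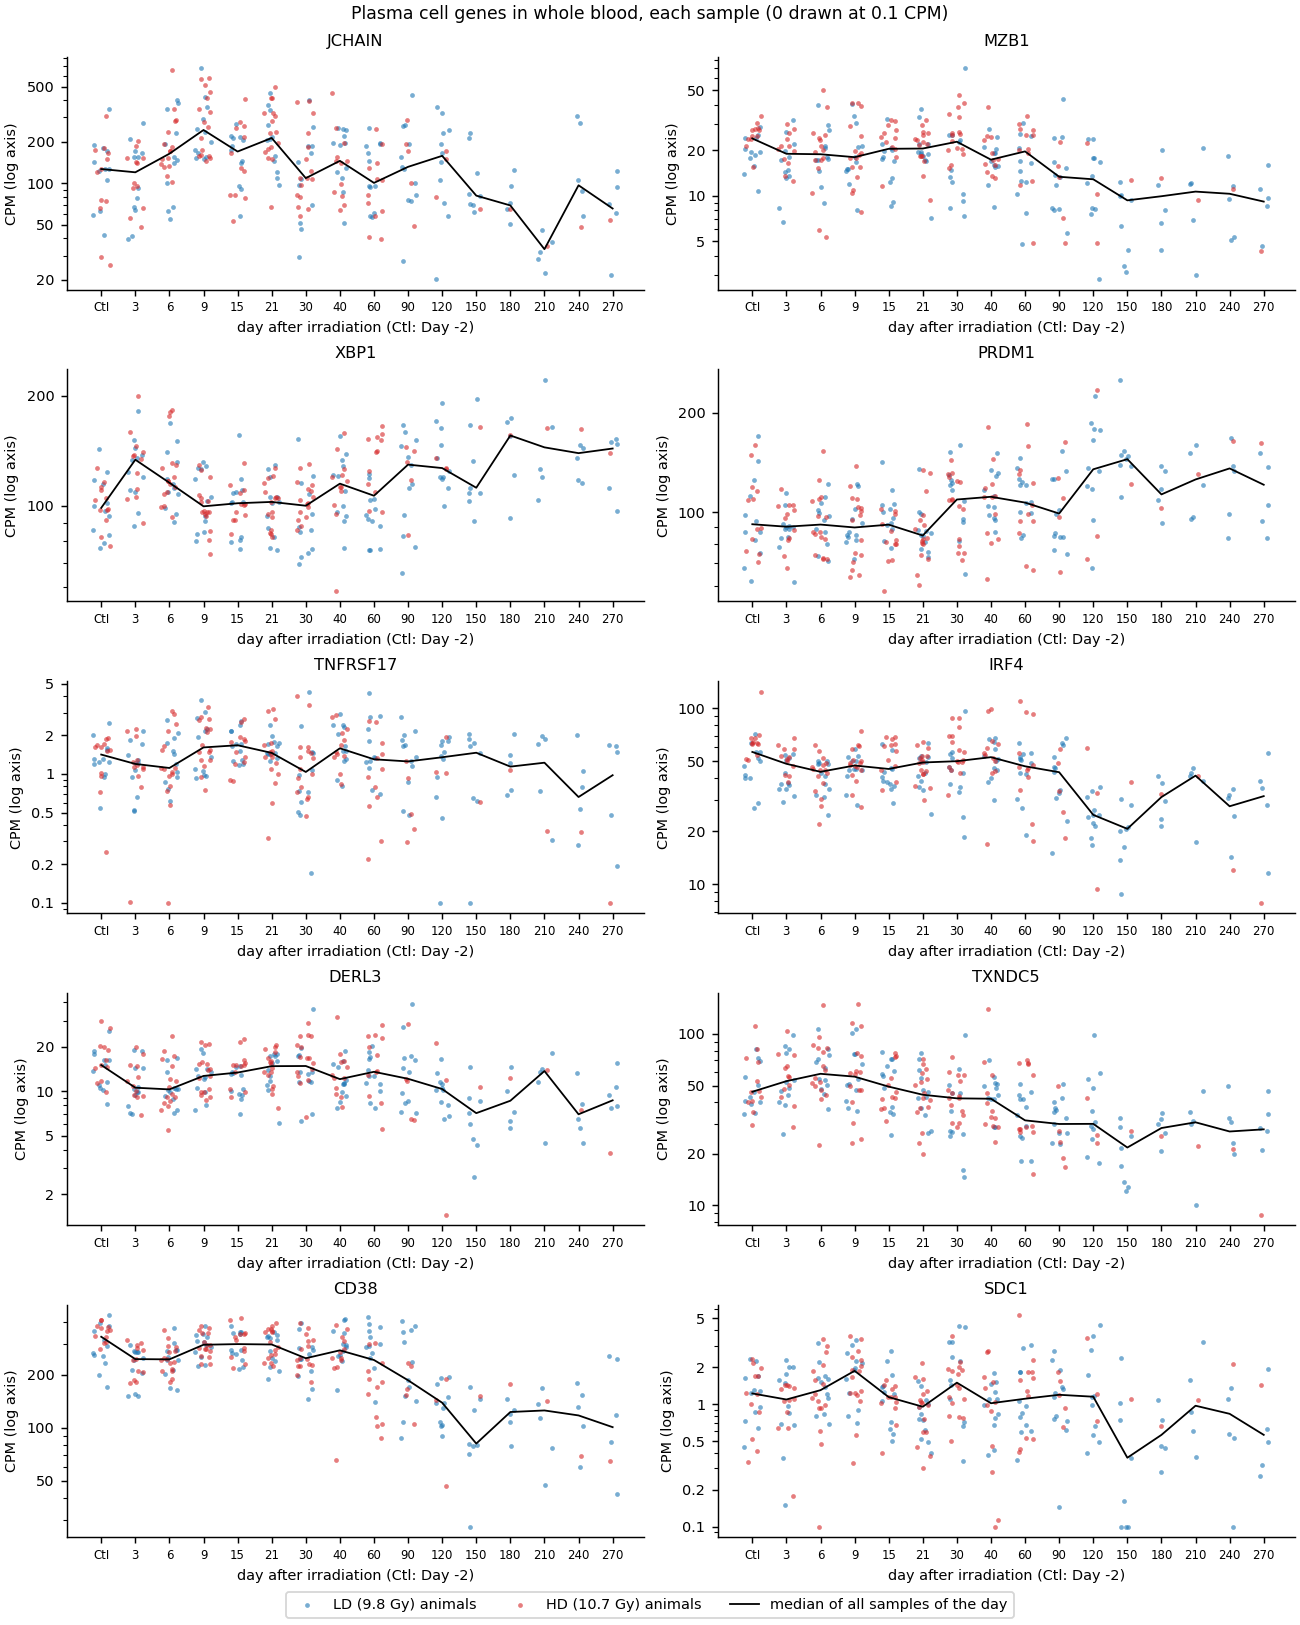
Level of each of the 10 genes (y axis, CPM on a log scale, 0 drawn at 0.1) by day after irradiation (x axis), with a point for each library, LD in blue and HD in red, and a line through the median of each day. JCHAIN rose from a median of 127 CPM in controls to 243 at Day 9, and CD38 fell to a median of 116.1 CPM over the late window from 301 in the controls of the same animals.

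Counted by day, the calls changed direction over the follow-up. Of the 10 genes, 0 were called at Day 3, 1 higher at Day 6, 1 higher at Day 9, 0 at Day 15 and 1 higher at Day 21, and in each case the gene was JCHAIN. Over all tested genes the share called was 11.5% at Day 3, 11.5% at Day 6, 7.58% at Day 9, 6.01% at Day 15 and 10.4% at Day 21, so that 1 of 10 was close to the share over all genes. None of the 10 was called at Day 30, Day 40 or Day 60, when 5.9%, 6.92% and 4.23% of all genes were. On the days with no call from Day 3 to Day 60, DESeq2 made none either. An unadjusted p under 0.05 in edgeR was found for 6 of the 10 at Day 3, 4 at Day 15, 3 at Day 30, 8 at Day 40 and 5 at Day 60. All of them were under the fold that was asked or above 0.05 after adjustment. Over all 13751 tested genes the numbers with such an unadjusted p were 8142, 6678, 5065, 7085 and 4678. From Day 90 to Day 240 the calls were mostly lower. The genes called lower numbered 2 at Day 90 (15 animals), 3 at Day 120 (12 animals) and 5 at Day 150 (9 animals). In 6 animals each, they numbered 5 at Day 180, 4 at Day 210 and 4 at Day 240. On these days in turn, 7.06%, 31.8%, 31.5%, 18.7%, 29.8% and 6.76% of all genes were called in either direction. Of the 13751 tested genes, 439, 2623, 2677, 1356, 2329 and 482 were called lower. At Day 120 the 3 of 10 was close to the share over all genes in either direction. PRDM1 was called higher at Day 150. Without the library of B1502, the shallowest of the study, the same 6 genes were called at Day 150, with CD38 at -1.45, MZB1 at -1.61 and PRDM1 at 0.69. At Day 270 none of the 10 was called, in a comparison of 6 animals in which edgeR called 0.00727% of all genes. An unadjusted p under 0.05 in edgeR was found there for 5 of the 10 and for 4060 of the 13751 tested genes. DESeq2 called 3 of the 10 at Day 270 (MZB1, IRF4 and CD38) and 2383 of the 13751. The calls at Day 240 were sensitive to the animals included: without B1503 none of the 4 genes was called, and the MZB1 call was lost without any of 5 of the 6 animals, the IRF4 call without any of 4 and the DERL3 call without any of 3.

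**Figure D2:**
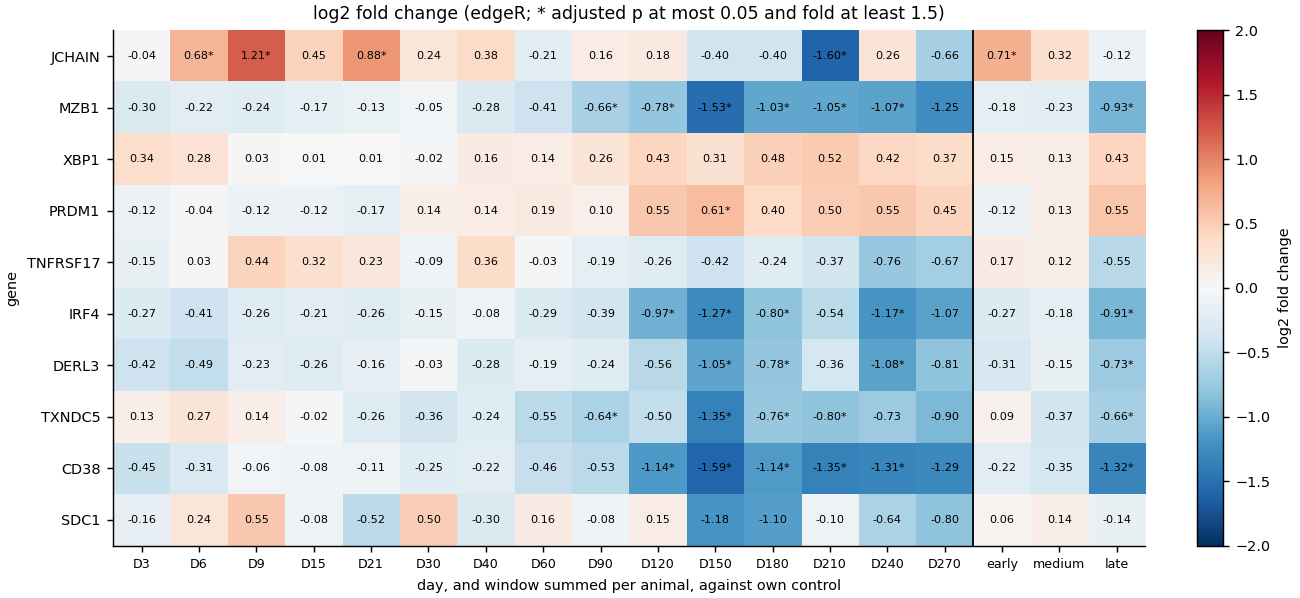
Log2 fold change against the control of the same animals for each gene (rows) at 15 days and in 3 windows (columns), with colour from lower to higher and a star on each called value. Calls from Day 6 to Day 21 were in JCHAIN, and calls from Day 90 onwards were mostly lower values of MZB1, IRF4, DERL3, TXNDC5 and CD38.

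JCHAIN, the joining chain of polymeric IgA and IgM, was the gene of the list that rose past the fold that was asked in the early window. Its level was 25.8 CPM in the lowest control, 127 at the median and 347 in the highest, and at Day 9 it was 144, 243 and 685. The ranges overlapped, and JCHAIN was higher in 21 of 24 animals. The log2 fold change at Day 9 was 1.21 (SE 0.23, fold 2.32, edgeR adjusted p = 0.000165). At Day 6 it was 0.68 (SE 0.25, adjusted p = 0.0282, edgeR), with 17 of 24 animals higher, and at Day 21 it was 0.88 (SE 0.18, adjusted p = 0.000222, edgeR), with 20 of 24 higher. Day 3 gave -0.04 (SE 0.17) and was not called. Day 15 gave 0.45 (SE 0.13), under the fold that was asked. Over the whole early window the log2 fold change was 0.71 (SE 0.17, edgeR adjusted p = 0.00108, 18 of 24 animals higher), from 132.1 ± 78.2 CPM in controls to 206.3 ± 90.3 (SD, n = 24). JCHAIN was 1 of 10 genes called higher and 0 were called lower, where 5.79% of all genes were called higher and 1.75% lower.

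The size of the early JCHAIN rise depended on which animals and which correction entered. In the 4 animals whose control library is numbered 0, control JCHAIN was 25.8, 47.8 and 75.9 CPM at the lowest, median and highest, against 42.5, 135.4 and 347 in the 20 animals whose control library is numbered 1 to 150. The mean log2 difference at Day 9 was 2.74 in the 4 and 0.94 in the 20. With the 20 alone, Day 9 remained called (log2 fold change 0.94, adjusted p = 0.0010, edgeR), as did Day 21 at 0.71, whereas Day 6 gave 0.38 and the early window 0.52 and neither was called. Day 6 was likewise not called when libraries under 5000000 counts were left out (0.41). JCHAIN is also rich in A and T, with 37.7% G and C in its transcript, and 5.08% of the tested genes had less. Across all libraries, the difference between AT-rich and GC-rich genes varied, and the JCHAIN level followed it within animals with a Pearson r of 0.63. With an offset for GC content, Day 9 remained called at 0.85 (SE 0.18, adjusted p = 0.000564, edgeR), whereas Day 6 (0.56), Day 21 (0.58) and the early window (0.55) fell under the fold that was asked. The early call was also lost without the animal as a block (0.58) and with all samples and the library series as a term (0.53). Erythroid markers moved with the early window as well, with 10 of 10 called higher and a summed level from a median of 6429 CPM in controls to 19358, and so did 4 of 10 proliferation genes. Their part in the JCHAIN rise was not tested.

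**Figure D3:**
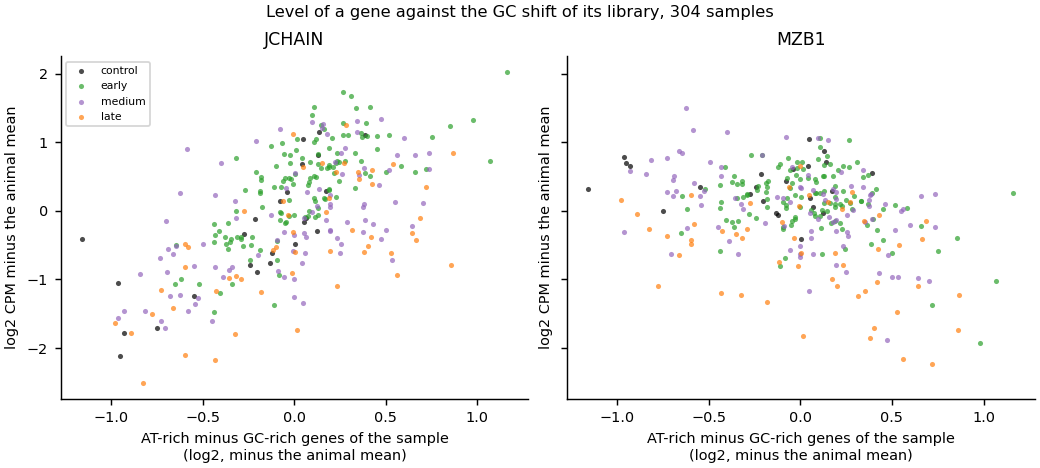
Log2 CPM of JCHAIN and MZB1 (y axes, minus the mean of the animal) against the shift between AT-rich and GC-rich genes of the same library (x axis, log2, minus the mean of the animal), with 1 point for each library of the study. JCHAIN rose with the shift (r = 0.63) and MZB1 fell with it (r = -0.33).

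After Day 21, in the fits of all animals as deposited, JCHAIN was not called against controls until Day 210. The medium window gave a log2 fold change of 0.32 (SE 0.22) and was not called. In the 4 animals whose control library is numbered 0, the only animals with a medium and a control library in 1 series, it was 1.68 in the medium window, 2.25 at Day 30 and 1.05 at Day 40, and each was called, against 0.24 and 0.38 at Day 30 and Day 40 over 24 animals. As given above, control JCHAIN was lower in those 4 animals. With all animals, the late window gave -0.12 (SE 0.31), with 7 of 14 animals higher and 7 lower. Day 210 stood apart. Control JCHAIN in the 6 animals of that day was 42.5 CPM at the lowest, 124.4 at the median and 165.4 at the highest, and at Day 210 it was 22.5, 33.3 and 45.6. JCHAIN was lower in 6 of 6 animals with a log2 fold change of -1.60 (SE 0.22, edgeR adjusted p = 0.000388), which stayed called without any of the 6 animals (-1.80 to -1.43). The shift between AT-rich and GC-rich genes was also lowest on that day, at a median of -0.83, and with the GC offset the log2 fold change was -1.23 and called. At Day 150, with a median shift of 0.63, the JCHAIN log2 fold change moved from -0.40 to -0.68 with the offset and became called. At Day 240 it was 0.26 as deposited and 0.04 with the offset.

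Some libraries of JCHAIN lay far above the control of the animal. The libraries of 1 animal share its control, and control JCHAIN was lower in the 4 animals with a control numbered 0, as given above. In the counts that follow, JCHAIN comes first. JCHAIN was over 4 times its control level in 13 of 120 early libraries, 9 of 86 medium libraries and 1 of 50 late libraries. It was more than 4 times below it in 6 of 50 late libraries. Of the other 9 genes, 0 were over 4 times higher in any early or late library, and TNFRSF17 was in 1 medium library. Late libraries more than 4 times below the control numbered 9 of 50 for MZB1, 7 for CD38, 7 for SDC1, 6 for IRF4, 4 for TNFRSF17, 3 for DERL3 and 3 for TXNDC5. The genes whose levels most resembled that of JCHAIN within animals over all libraries were RPL9, CCNG1, PPP1CC, RPL7, CASP8AP2, ZBED8, JRKL, NMD3, LOC701034 and PSMA2, with r from 0.80 to 0.81, and none was among the other 9 genes. In the same ranking the nearest of the other 9 was TNFRSF17 at rank 2668 (r = 0.40), and MZB1 stood at rank 3184 (r = 0.35). With the GC offset the first genes were EEF1A1, RPL9 and RPL7, and MZB1 rose to rank 56 (r = 0.65) and TXNDC5 to rank 176 (r = 0.57).

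As deposited, the endoplasmic reticulum genes of antibody secretion did not follow JCHAIN in the early window. With the GC offset, as given above, MZB1 and TXNDC5 resembled JCHAIN more closely within animals. MZB1, a chaperone that helps assemble immunoglobulin, had an early log2 fold change of -0.18 (SE 0.08, 8 of 24 animals higher), and TXNDC5, a disulfide isomerase, had 0.09 (SE 0.05). DERL3, a component of the channel through which misfolded proteins leave the endoplasmic reticulum, gave -0.31 (SE 0.08, adjusted p = 0.00133, edgeR), under the fold that was asked. In the late window all 3 fell. MZB1 was 10.8, 19.9 and 33.9 CPM at the lowest, median and highest in the controls of the 14 animals and 5.82, 10.7 and 16.8 in the late window. It was lower in 13 of 14 animals, with a log2 fold change of -0.93 (SE 0.13, adjusted p = 2.98e-05, edgeR). DERL3 went from a median of 15.5 to 8.89 CPM with a log2 fold change of -0.73 (SE 0.13), and TXNDC5 from 44.3 to 30.5 with -0.66 (SE 0.13), both lower in 13 of 14 animals.

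By day, MZB1 was called lower on 6 of 15 days, from Day 90 to Day 240, with log2 fold changes between -1.53 and -0.66. Of the 6 days, 3 stayed called with the GC offset (Day 150, 180 and 210), and Day 90 (-0.52), Day 120 (-0.50) and Day 240 (-0.86, adjusted p = 0.0631, edgeR) did not. Without the animal as a block Day 90 gave -0.52 and Day 240 -0.99, and neither was called. At Day 150 it did not overlap with the controls of the same 9 animals: 13.9 to 28.8 CPM in controls and 3.13 to 12.8 at Day 150. TXNDC5 at Day 150 did not overlap either, with 34.3 to 81.4 CPM in controls and 12.2 to 32.5 afterwards, and was called on 4 days, of which Day 210 was lost without animal B1502 (log2 fold change -0.58). DERL3 was called at Day 150, Day 180 and Day 240. With the GC offset the late changes were -0.73 for MZB1, which stayed called, and -0.53 for DERL3 and -0.44 for TXNDC5, which did not. TXNDC5 was also lost with TMM scaling (-0.57) and with DESeq2 (-0.54), and gave -0.14 in the fit of all samples with the library series as a term. DERL3 overlaps SMARCB1 and TXNDC5 overlaps BMP6 on the opposite strand, and the strand setting of the counting is not given in the sources used here, so reads of each pair cannot be told apart.

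The 3 transcription factors parted in the late window. IRF4 fell from 27.3, 51.2 and 124.4 CPM at the lowest, median and highest in controls to 18.3, 26.8 and 35.5. It was lower in 13 of 14 animals, with a log2 fold change of -0.91 (SE 0.15, adjusted p = 8.49e-05, edgeR), and remained called with the GC offset at -0.68. At Day 240 the 6 animals ranged from 39.9 to 71.0 CPM in controls and from 12 to 35 afterwards, without overlap. XBP1 had a late log2 fold change of 0.43 (SE 0.08, adjusted p = 0.000161, edgeR) with 14 of 14 animals higher, from a median of 97.2 to 136.6 CPM, but was under the fold that was asked. PRDM1 gave 0.55 (SE 0.14, adjusted p = 0.0031, edgeR) with 12 of 14 higher, also under that fold. With the GC offset XBP1 gave 0.61 and PRDM1 0.60 and both were called, and PRDM1 was also called with TMM scaling and DESeq2. At Day 150 PRDM1 was called higher as deposited, with a log2 fold change of 0.61 (SE 0.18) and 7 of 9 animals higher, and with the offset its adjusted p was 0.0555.

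XBP1 was also above its control in the first days, but not at Day 9 or Day 15. At Day 3 it was higher in 23 of 24 animals, at 88.3, 133.7 and 199.3 CPM against 76.6, 98.8 and 143 in controls. The log2 fold change of 0.34 (SE 0.05, adjusted p = 1.35e-06, edgeR) was under the fold that was asked. For XBP1, Day 6 gave 0.28 (SE 0.05), Day 9 0.03 (SE 0.05) and Day 15 0.01 (SE 0.05), and none was called. IRF4 at Day 6 gave -0.41 (SE 0.10), also under the fold that was asked.

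Among the surface proteins, CD38, an ectoenzyme that degrades NAD, had the largest late change of the 10. It ranged over 170, 301 and 434 CPM in the controls of the 14 animals and 71.9, 116.1 and 193.6 in the late window, lower in 14 of 14 animals. The log2 fold change was -1.32 (SE 0.12, adjusted p = 3.69e-07, edgeR), which is 2.5-fold lower, and with the GC offset it was -1.31. From Day 120 to Day 240 its ranges did not overlap with those of the controls of the same animals on any of the 5 days, with log2 fold changes from -1.59 to -1.14. At Day 3 it was -0.45 (SE 0.06) and at Day 90 -0.53 (SE 0.13), both with an adjusted p below the threshold of edgeR's test and under the fold that was asked. Day 90 was -0.63 and called once the GC offset was added. TNFRSF17 (BCMA), which receives the survival signals APRIL and BAFF, gave a late log2 fold change of -0.55 (SE 0.27, adjusted p = 0.0921, edgeR), and SDC1 gave -0.14 (SE 0.28). SDC1 at Day 9 was higher in 17 of 24 animals with a log2 fold change of 0.55 (SE 0.16, adjusted p = 0.00696, edgeR), under the fold that was asked and over it with the GC offset (0.74).

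In the late window 5 of the 10 genes were thus called lower and 0 higher, where 18.5% of all genes were called lower and 14% higher. With the GC offset the balance was 3 lower (CD38, MZB1 and IRF4) and 2 higher (XBP1 and PRDM1), where 1551 of all 13751 tested genes were called lower and 2381 higher. As deposited, the median log2 fold change over all 10 was -0.60, against -0.13 over all tested genes. The balance of all late calls depended on the scaling, with 1919 higher and 2548 lower as scaled by the upper quartile and 2434 higher and 1784 lower with DESeq2, whose median over all genes was -0.01. Libraries of late blood held more neutrophil and monocyte RNA. The summed level of the 9 neutrophil markers ranged over 874, 3131 and 8316 CPM at the lowest, median and highest control and over 4311, 6439 and 12793 in late animals, with 7 of 9 called higher. The 7 monocyte markers went from a median sum of 1593 to 3277 CPM (5 of 7 higher) and the 9 T cell markers from 1855 to 1042 (6 of 9 lower). Plasmacytoid dendritic cell markers, 7 of 10 tested, had 2 higher and 4 lower. The part of these shifts in the late falls was not tested.

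The comparison of the late with the medium window has 16 animals and could be made within 1 series of library numbers, whose meaning is not stated. In it CD38 gave -1.17 (SE 0.11), IRF4 -0.85 (SE 0.13), DERL3 -0.70 (SE 0.13) and MZB1 -0.69 (SE 0.12). All 4 were called lower, where 12.6% of all genes were called lower and 9.38% higher, and the median over all genes was -0.19. Within 1 series the values were -1.08 for CD38, -0.84 for IRF4, -0.73 for DERL3 and -0.72 for MZB1, each called. CD38 was lower in 16 of 16 animals, from a median of 269 to 116.1 CPM. With DESeq2 MZB1 and DERL3 were under the fold that was asked. They were under it with the GC offset too (-0.56 and -0.57), where PRDM1 was called higher (0.59), and MZB1 was also lost with no low count filter (-0.58). In the medium window none of the 10 was called against controls by edgeR or DESeq2 (5 and 6 with an unadjusted p under 0.05), where 4.48% of all genes were called higher and 1.27% lower, and none against the early window by either tool (6 and 6 with an unadjusted p under 0.05, and 1.61% and 2.3% of all genes). Of the 13751 tested genes, 7141 by edgeR and 7370 by DESeq2 had an unadjusted p under 0.05 against controls. Against the early window the numbers were 8541 and 8723. TXNDC5 gave -0.50 (SE 0.06) and JCHAIN -0.49 (SE 0.10) from the early to the medium window, both under that fold.

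**Figure D4:**
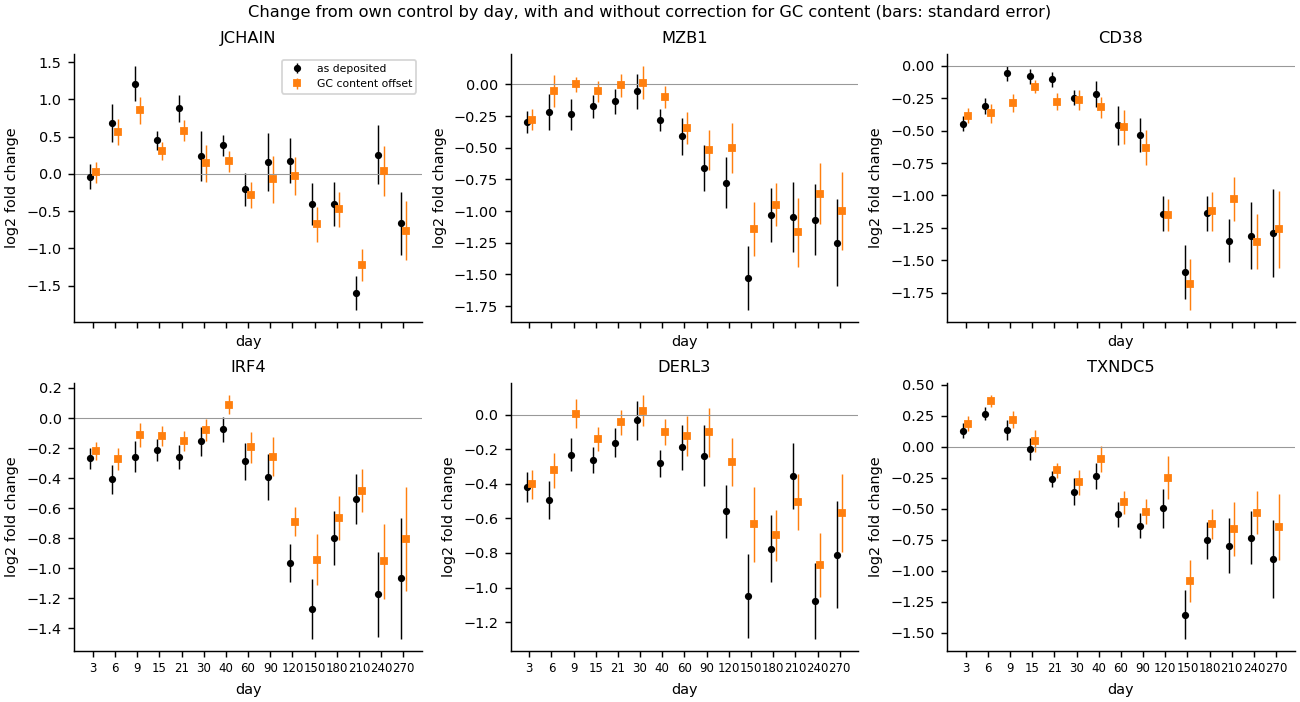
Log2 fold change (y axis, with SE bars) against the controls of the same animals by day (x axis) for JCHAIN, MZB1, CD38, IRF4, DERL3 and TXNDC5, as deposited and with an offset for GC content. The 2 fits moved the JCHAIN value at Day 9 from 1.21 to 0.85 and left the late CD38 values below -1.

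No difference by dose or sex was called in the 10 genes. The fold change was compared between HD and LD and between females and males, from Day 3 to Day 21 and from Day 30 to Day 40. None of the 10 was called in any of the 4 comparisons, with smallest adjusted p of 0.86, 0.413, 1.00 and 0.524 by edgeR. At an unadjusted p under 0.05 edgeR gave 2, 1, 0 and 2 genes, and DESeq2 called none. For HD minus LD the edgeR genes were IRF4 (-0.28) and CD38 (-0.19) from Day 3 to Day 21, and CD38 (-0.26) from Day 30 to Day 40. For females minus males they were MZB1 (0.41) and DERL3 (0.33) from Day 30 to Day 40. The share over all genes was 0% for the dose from Day 3 to Day 21, 0.0509% from Day 30 to Day 40 and 0% for sex in both. For JCHAIN from Day 3 to Day 21 the difference of HD minus LD was 0.29 with a 95% interval from -0.38 to 0.96. The interval leaves room for a difference of about the size of the early JCHAIN rise, so the comparison does not show that doses acted alike. The 4 animals with a control library numbered 0 were all HD, so dose and library number were partly confounded. Their control JCHAIN was lower, as given above. Their mean log2 difference at Day 9 was -1.11 for IRF4 and -0.21 for CD38, against -0.09 and -0.03 in the other 20 animals. The part of these animals in the HD minus LD values was not tested.

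The levels of JCHAIN, MZB1 and TNFRSF17 were set against that of the 18 B cell markers of the same library, as the difference of log2 values. MZB1 is also expressed in plasmacytoid dendritic cells, as given above. The B cell markers themselves fell early, with 15 of 18 called lower and a median log2 fold change of -0.86, and 17 of 18 in the late window with -1.81. Their summed level ranged over 468, 1956 and 3573 CPM at the lowest, median and highest control, 366, 844 and 2079 in early animals and 88.96, 481 and 860 in late ones. All 18 were tested, and none was called higher in any window against controls.

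Relative to the B cell markers, JCHAIN rose by 1.51 on the log2 scale in the early window (SE 0.23, 23 of 24 animals higher, permutation p = 2e-05, the smallest that 100000 resamples can give, and 9e-05 adjusted over the 9 comparisons). It was 0.70 in the medium window (18 of 24, adjusted permutation p = 0.00945), where the 20 animals with a control library numbered 1 to 150 gave 0.46 (adjusted permutation p = 0.0834), and 1.65 in the late window (12 of 14, adjusted permutation p = 0.00154). MZB1 gave 0.64 in the early window (21 of 24 animals, adjusted permutation p = 0.00018), 0.19 in the medium window (15 of 24, adjusted permutation p = 0.116) and 0.84 in the late window (13 of 14, adjusted permutation p = 0.0011). TNFRSF17 gave 1.00 early (23 of 24, adjusted permutation p = 9e-05), 0.52 in the medium window (17 of 24, adjusted permutation p = 0.00604) and 1.24 late (12 of 14, adjusted permutation p = 0.00256). The tests are two-sided and over animals. A positive difference shows that the gene and the B cell markers changed by unequal amounts. In the late window MZB1 was itself lower while the difference rose. The B cell markers had a median log2 fold change of -0.86 early, -0.36 in the medium window and -1.81 late. Over all tested genes the median was -0.02, -0.02 and -0.13. A gene that did not change would therefore also give a positive difference, and the p-values do not show that a gene rose.

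**Figure D5:**
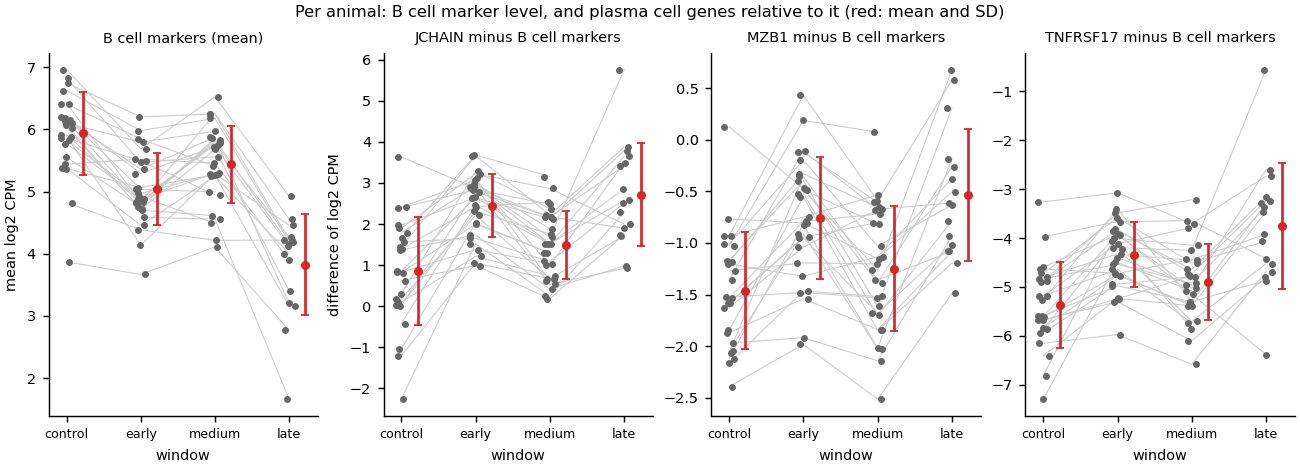
For each animal (points), the mean log2 level of the B cell markers and the level of JCHAIN, MZB1 and TNFRSF17 minus that mean (y axes, log2) in control, early, medium and late blood (x axis), with the mean ± SD in red. The B cell mean was lowest in late blood, and JCHAIN minus it was 0.85 in controls and 2.36 in the early window.

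The 10 genes did not move as 1 group within animals. Over all libraries, as a description, the closest pairs were IRF4 with CD38 (r = 0.78), IRF4 with DERL3 (0.76), MZB1 with DERL3 (0.75) and MZB1 with TXNDC5 (0.71). With the B cell mean the r was 0.84 for CD38, 0.82 for IRF4, 0.77 for DERL3, 0.64 for MZB1, 0.17 for JCHAIN, -0.45 for PRDM1 and -0.53 for XBP1. The points share animals, library depth and base composition.

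Other genes of the lineage came from a list of 20, of which 19 were tested. Their median log2 fold change was -0.06 early and -0.29 late. Early, 3 were called lower and 0 higher, where 1.75% of all genes were called lower and 5.79% higher. The 3 were the Fc receptor-like FCRL5 (log2 fold change -1.12, SE 0.10, 24 of 24 animals lower), TNFRSF13B, the receptor TACI (-0.94, SE 0.06, 24 of 24 lower), and the B cell coactivator POU2AF1 (-0.59, SE 0.08, 22 of 24 lower). In the late window 7 of 19 were called lower and 2 higher, where 18.5% of all genes were called lower and 14% higher. FCRL5 was then at -1.75 and TNFRSF13B at -1.41, while TRIB1, which is also expressed in myeloid cells, was at 1.39 with 13 of 14 animals higher. FCRL5 went from a median of 74.6 CPM to 19.9.

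Genes of the unfolded protein response and secretion, 24 of 24 tested, hardly passed the test. None was called in the early or medium window, and in the late window 1 was called higher and 1 lower. These were ATF6, a sensor of stress in the endoplasmic reticulum (log2 fold change 0.78, SE 0.15, 13 of 14 animals higher), and HYOU1, a chaperone (-0.62, SE 0.13, 13 of 14 lower). The median over the 24 was 0.07 early and 0.01 late, against -0.02 and -0.13 over all genes.

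Of 11 survival ligands and receptors, 2 were higher and 1 lower early, and 3 were higher and 4 lower late. The ligands of BCMA were among those higher early: TNFSF13, which encodes APRIL, gave 0.74 (SE 0.07, 23 of 24 animals) and TNFSF13B, which encodes BAFF, 0.59 (SE 0.11, 20 of 24). In the late window TNFSF13 gave 1.22 (SE 0.13, 14 of 14 animals), from a median of 38.5 to 97.7 CPM, alongside the rise in myeloid markers given above. The BAFF receptor TNFRSF13C, found on B cells, was at -1.03 early and -1.24 late, and CD28, which T cells and plasma cells carry, was at -1.11 late.

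The table held 19 rows for immunoglobulin variable or light chain genes, of which 18 were tested, and 0 for constant regions of heavy chains, so isotypes were not analysed here. Early, 0 of 18 were called, with a median log2 fold change of -0.25. In the late window 14 of 18 were called lower, with a median of -0.96, and 12 of 18 against the medium window. As these genes are close copies of each other, reads can be split between rows and single values are uncertain.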

How the data were processed

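Blood RNA was depleted of ribosomal RNA, and libraries were made with a stranded total RNA kit and sequenced on a NovaSeq instrument. Per the submitters' processing notes, reads were trimmed with cutadapt 2.10, aligned with STAR 2.7.6a to Mmul_10 and counted with Subread 2.0.1. The strand setting is not given in the sources used here. The authors deposited raw read counts per gene, which were used here, and a normalized matrix, which was not used here.

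Testing was limited to genes that reached 3 counts in 80% or more of the libraries. It used the quasi-likelihood test of edgeR 4.0.16 (R 4.3.3) with the animal as a blocking factor, libraries scaled by their upper quartile, and p-values adjusted by the Benjamini-Hochberg method. Days and windows were compared with the Day -2 control of the same animals. The blocks pair samples because they come from the same animal. Dose and sex were tested as interaction terms. The scripts were tested on simulated data. B cell differences used a permutation test over animals (two-sided, 100000 resamples, or exact for 14 animals), with a prior count of 2 on the log2 scale. Alternatives were DESeq2 1.42.0, TMM scaling, no low count filter, each animal left out, and offsets for GC content, which were chosen after seeing the data, as were the fits by library number and depth. Named genes were all 10 members, at most 3 called genes of each list with the largest change, and the 10 genes most correlated with JCHAIN. The members and lists were chosen with earlier results of these data known. A comparison with a shorter list of B cell markers is not reported here.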

Additional observations from a re-analysis of the deposited data

Results flagged for a closer look

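In groups of 4 to 10 libraries of the same dose and day, 3 of 60 tests placed 1 library far from the others by Dixon's criterion, which chance does in about 1 of 20 groups. In LD blood at Day 150, PRDM1 was 251.9 CPM in animal B1506 and between 111.3 and 153 CPM in the other 7 animals. In the same group TNFRSF17 was 0 CPM in animal B1502 and between 0.621 and 2.03 CPM in the others. That library was the shallowest, with 2840219 counts, and 3 counts in it correspond to 1.06 CPM, so a level below this was not detectable at this depth. In LD blood at Day 210, IRF4 was 17.3 CPM in animal B1502 and between 38.5 and 46.02 CPM in the other 4 animals.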

How the results depend on the processing

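Counts below are of the 10 plasma cell genes. With the samples paired by animal, 27 calls were made over the 15 days, and 24 without the animal as a block. Without the pairing the 1 early call was lost (0), late calls stayed at 5 and late against medium at 4, and the TNFRSF17 difference from B cell markers in the medium window was 0.47 (adjusted permutation p = 0.0529). The early call was also lost (0) with all samples and the library series as a term, with the GC offset, with GC content and transcript length, with control libraries numbered 1 to 150, and with these and the GC offset. Requiring the adjusted p alone gave 68 calls over the days, 5 early, 5 medium, 5 medium against early and 7 late against medium. With the GC offset the late calls were 3 lower and 2 higher in place of 5 lower, and late against medium gave 2 lower and 1 higher (CD38, IRF4 and PRDM1). Over all 13751 tested genes the offset gave 1551 lower and 2381 higher late, and 749 lower and 1877 higher late against medium. Late against medium gave 2 with DESeq2 and 2 with GC content and transcript length. Within 1 library series, calls went from 3 to 5 over 7 days and from 0 to 1 in the medium window (JCHAIN, 4 animals), and with control libraries numbered 1 to 150 and the GC offset from 5 to 2 over 9 days. Relative to B cell markers in the medium window, JCHAIN gave 0.46 with control libraries numbered 1 to 150 and 0.29 with the GC offset added, and MZB1 gave 0.24 with the GC offset. The cause of these changes was not tested.

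Leaving out each animal in turn gave 1 to 1 early call, 0 to 0 medium calls, 5 to 6 late calls and 9 to 16 calls over Day 180 to Day 270, where 13 were made with all 6 animals. On Day 240 the MZB1 call was lost without B1003, B1004, B1502, B1503 or B2502, the IRF4 call without B1003, B1004, B1502 or B1503, the DERL3 call without B1003, B1004 or B1503, and the CD38 call without B1503. Of 3030 values of single genes under alternatives, 2743 kept their direction and side of the threshold and 64 fell below it. None of the called values changed sign. Depth limited TNFRSF17 and SDC1 most. The fits with GC content, library numbers and depth were chosen after seeing the data.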
